A study of Mus musculus with 8 samples.

Results

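The enzymes described here attach glucuronic acid or sulfate to small molecules, or cleave esters. They are the UDP-glucuronosyltransferases of families 1 and 2 (UGT), the cytosolic sulfotransferases (SULT) and the carboxylesterases (CES). Members were chosen by gene symbol, as every gene whose name starts with Ugt1, Ugt2, Sult or Ces1 to Ces5 and is not marked as a pseudogene. That gave 57 of the 34745 genes in the deposited tables, with 19 UGT, 19 SULT and 19 CES genes, and left out 7 pseudogenes. The rule uses no measured value, but it was set with earlier results of these data known.

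The samples were crypts, the glands of the gut epithelium, sequenced as 4 DSS_CA and 4 DSS libraries. DSS_CA mice were labelled as given DSS+CA, where CA is cholic acid, a primary bile acid, per the series title. DSS mice were labelled as given DSS alone, that is dextran sulfate sodium, which damages the epithelium and serves as a standard model of colitis. All were wild type on the C57BL/6 background and were taken on day 5. Both groups carried DSS, so there was no group without it. Whether the sampled tissue was injured was not tested. The labels named neither age, sex, dose, route nor gut segment, and did not say whether replicates came from separate animals. A p-value here is set by the spread among these samples only, and that spread may be technical.

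UGT enzymes sit in the endoplasmic reticulum and transfer glucuronic acid from UDP-glucuronic acid to bilirubin, phenols, steroids and bile acids, which makes them water soluble. SULT enzymes work in the cytosol and transfer sulfate from the donor PAPS to phenols, steroids and catecholamines. Carboxylesterases hydrolyse esters and amides, among them acylglycerols and ester prodrugs, and gut and liver are known as rich sources of all of these enzymes.

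Total counts were 13334012 to 15953432 in DSS_CA and 13499332 to 17973196 in DSS. The libraries differed along an axis other than treatment. On the first principal component, which held 50.9% of the variance, DSS_CA 3 and DSS 2 lay at one end (67.8 and 59.9). DSS 3 came next, at an intermediate 23.0, and the other 5 lay from -53.6 to -3.54. DSS_CA 3, DSS 2 and DSS 3 had the shortest mean counted gene length, at 1445, 1423 and 1448 bases, against 1719 to 2412 bases in the other 5. They also had the highest summed levels of 15 absorptive enterocyte markers, at 128152, 98487 and 112695 CPM (counts scaled to a common library size with the TMM method), against 39563 to 65997 CPM in the other 5. The labelled crypts thus held abundant absorptive cell transcripts. Of 5 colon markers 0 reached the level needed for testing, and their sum was 10.3 to 13.4 CPM in DSS_CA and 10.4 to 25.7 CPM in DSS. Of 8 hepatocyte markers, Fga, Fgg, Serpina3k and Mup3 had 0 counts in every library, and the list summed to 0 to 1.46 CPM in DSS_CA and 0.733 to 0.839 CPM in DSS. All 10 tested T and NK cell markers had negative log2 fold changes, with a median of -1.89, and the list summed to 116 to 1128 CPM in DSS_CA and 607 to 2124 CPM in DSS. All 8 tested Paneth cell markers were negative too, with a median of -1.41 and sums of 5330 to 18062 CPM in DSS_CA and 7256 to 40243 CPM in DSS. Of 8 goblet cell markers 7 were negative, with a median of -0.91 and sums of 3744 to 8908 CPM in DSS_CA and 8078 to 13226 CPM in DSS. All 5 tested enteroendocrine markers were negative, with a median of -0.31 and sums of 158 to 191 CPM in DSS_CA and 195 to 320 CPM in DSS. Of 5 tested crypt base stem cell markers 4 were negative, with a median of -0.37. Their list summed to 294 to 735 CPM in DSS_CA and 445 to 1635 CPM in DSS. The 15 absorptive enterocyte markers were mixed, with 6 positive, 9 negative and a median of -0.03. The part of these cell markers in the results was not tested. In bulk samples, fewer cells of a type and less RNA per cell cannot be told apart.

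Of the 57 members, 27 reached 1 FPKM (fragments per kilobase of gene, scaled to the library's total count) in at least 4 libraries and were tested, and 30 were not. Of these 30, 13 had 3 to 233 counts over the 8 libraries together, and 17 had 0 in all of them. Per length, the carboxylesterase Ces2e stood highest, at 432 ± 30.3 FPKM in DSS_CA and 338 ± 44.3 FPKM in DSS (SD, n = 4 each). It was followed by the sulfotransferases Sult1d1 (359 ± 314 and 280 ± 138 FPKM) and Sult1b1 (184 ± 158 and 211 ± 106 FPKM). Next came Ugt2b34 (122 ± 24.1 and 140 ± 69.4 FPKM), Ugt1a1 (158 ± 72.1 and 74.4 ± 33.6 FPKM) and Ces2c (127 ± 66.4 and 57.1 ± 22.3 FPKM). Compared within each library, Sult1d1 stood above Sult1b1 in all but DSS 3 (255 against 312 FPKM), and Ugt1a1 above Ces2c in every library. Ugt2b34 stood above Ces2c in every DSS library, but below it in every DSS_CA library except DSS_CA 3. The order of Ces2e and Sult1d1 changed between libraries, as did that of Ugt2b34 and Ugt1a1. Differences in level between genes were not tested.

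No member passed an adjusted p of 0.05 in edgeR's quasi-likelihood test in either direction, and DESeq2 also called 0. Over all 9913 genes tested, edgeR called 0.0404% higher and 0.0908% lower. At an unadjusted p below 0.05, 6 members were higher (22.2% of 27, against 2.97% of all genes) and 2 were lower (7.41%, against 4.85%). The higher ones were Ces2g, Ugt1a6a, Ugt1a7c, Ugt1a1, Ces2c and Ugt1a8, and the lower ones Ces1d and Ugt2b38. Of the 6, 4 are genes of the single UGT1 locus that share exons, so they are not separate observations. The count of 6 was 2 without DSS 4 or DSS_CA 1 and 3 without DSS_CA 2 or DSS_CA 4, and the count of 2 was 1 without DSS 2 or DSS_CA 4. Over all genes, those fits had 504 to 706 genes at this threshold, against 775 with all 8 libraries. The groups did not overlap in CPM for 2 members that were higher, Ces1f and Ugt1a8, against 3.24% of all genes, and for 0 that were lower, against 2.81%. Log2 fold changes were positive for 19 of the 27, with a median of 0.23. Over all genes 51.9% were positive and the median was 0.02. Without DSS_CA 3 the median of the 27 was -0.000458 and 13 were positive.

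**Figure D1:**
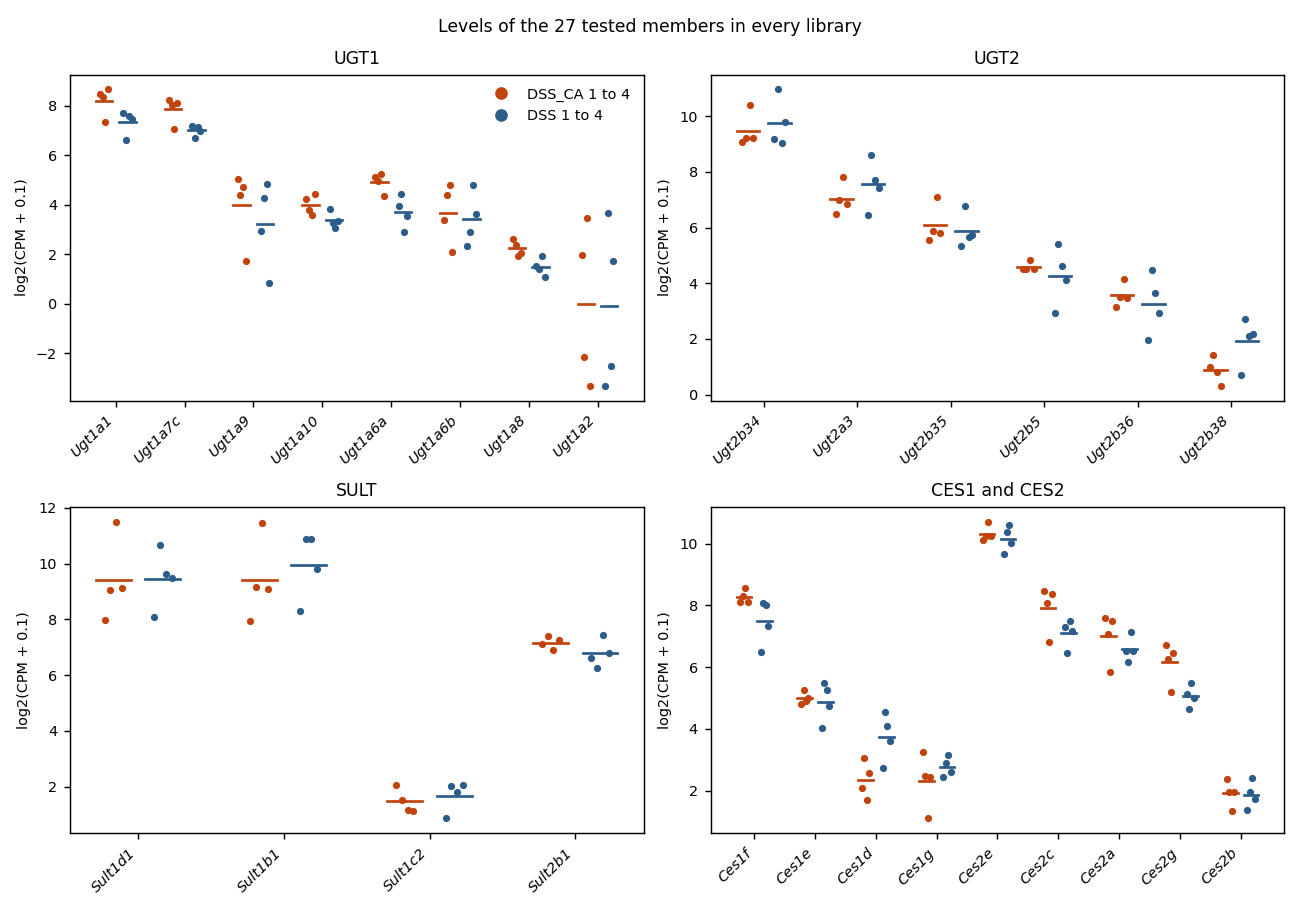
Levels of the 27 tested members, on a scale of log2(CPM + 0.1), with 4 DSS_CA libraries (left of each pair, orange) and 4 DSS libraries (right, blue) as points and the mean as a line. Ugt1a7c and Ugt1a1 lie mostly higher in DSS_CA with 1 low library, and Sult1d1 and Sult1b1 spread widely within both groups.

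The UGT1 family is a single locus on chromosome 1, where 9 genes lie between 88055388 and 88220002 (GRCm38). Each has its own first exon, which gives the enzyme its substrate range, joined to exons that all 9 share. The GENCODE M21 annotation holds 3 such exons with identical ends in all 9, at chr1:88215044-88215175, chr1:88215795-88215882 and chr1:88216138-88216357. Further upstream it holds 1 exon of 859 bases common to Ugt1a6a and Ugt1a7c, and 1 of 127 bases common to Ugt1a6b and Ugt1a7c. Of all 50-base stretches in the transcripts of the 9 genes, only 20.2% (Ugt1a6b) to 47.9% (Ugt1a6a) were unique to the gene. How reads on the shared exons were divided is not given in the sources used here, so values of single Ugt1a genes are uncertain, and the sum over the locus is less so.

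Summed over the locus, UGT1 genes held 755, 675, 414 and 735 CPM in DSS_CA 1 to 4, against 403, 275, 407 and 346 CPM in DSS 1 to 4. The lowest DSS_CA library, DSS_CA 3, lay next to the highest DSS libraries, and the groups did not overlap, by a narrow margin. That margin depended on scaling, with a TMM factor of 0.739 in DSS_CA 3 and 1.24 in DSS 1. Scaled by library totals alone, the DSS_CA 3 sum lay below the DSS 1 sum, and the groups overlapped. The mean was 645 ± 158 CPM in DSS_CA and 358 ± 61.8 CPM in DSS, a ratio of 1.80. Of the 8 tested genes 7 had positive log2 fold changes, with a median of 0.72, and the median lay between 0.60 and 0.96 under every alternative fit. These genes share exons, so their signs are not independent of each other.

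Ugt1a1, the enzyme that conjugates bilirubin, led the locus with 64.7% of its summed FPKM. It was at 352, 323, 163 and 405 CPM in DSS_CA 1 to 4, against 209, 98.2, 192 and 178 CPM in DSS 1 to 4. The lowest libraries were DSS_CA 3 and DSS 2, which have short counted genes, whereas DSS 3, which has them too, was the second highest DSS library. The groups overlapped through DSS_CA 3. The log2 fold change was 0.88 (SE 0.363, edgeR adjusted p = 0.555).

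Ugt1a7c, which conjugates phenols, was lowest within each group in the same libraries. It was at 297, 260.5, 133 and 276 CPM in DSS_CA 1 to 4, against 147, 105, 140 and 127 CPM in DSS 1 to 4. DSS_CA 3 again lay inside the DSS range, while the other DSS_CA libraries stood above all DSS libraries. On the log2 scale the fold change was 0.90 (SE 0.316, edgeR adjusted p = 0.404). Left-out libraries moved it between 0.78 and 1.10.

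Ugt1a6a, which favours planar phenols, had the smallest p of the locus (0.00842, edgeR). It was at 34.5, 30.7, 37.6 and 20.3 CPM in DSS_CA 1 to 4, against 15.1, 21.4, 7.38 and 11.4 CPM in DSS 1 to 4. Only DSS_CA 4 lay below DSS 2, and DSS_CA 3 was the highest of its group, unlike for Ugt1a1 and Ugt1a7c. This gave a log2 fold change of 1.16 (SE 0.363, edgeR adjusted p = 0.303).

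The lesser members of the locus varied more from library to library. Ugt1a9 was at 32.9, 21.01, 26.5 and 3.22 CPM in DSS_CA 1 to 4, against 7.5, 19.4, 28.6 and 1.69 CPM in DSS 1 to 4. Its lowest library was number 4 in both groups, the ranges overlapped, and the log2 fold change was 0.55 (SE 0.771, edgeR adjusted p = 0.979). Ugt1a10, whose human counterpart is known as a gut enzyme, was at 18.8, 13.5, 11.8 and 21.7 CPM in DSS_CA 1 to 4, against 14.02, 9.38, 8.14 and 10.1 CPM in DSS 1 to 4. DSS 1 lay among the DSS_CA libraries and the other DSS libraries below them all (log2 fold change 0.66, SE 0.313, edgeR adjusted p = 0.669). Ugt1a8 averaged 4.70 ± 1.03 CPM in DSS_CA and 2.75 ± 0.680 CPM in DSS, without overlap. In FPKM, which scale by library totals, the groups overlapped, with 1.21 in DSS_CA 3 against 1.53 in DSS 1. Its log2 fold change was 0.78 (SE 0.343, edgeR adjusted p = 0.612). Ugt1a2 ran from 0 to 11.0 CPM in DSS_CA and from 0 to 12.6 CPM in DSS, so no order could be read from it. Ugt1a5 was not tested, with 1 count in DSS_CA and 56 in DSS, all 56 in DSS 1.

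**Figure D2:**
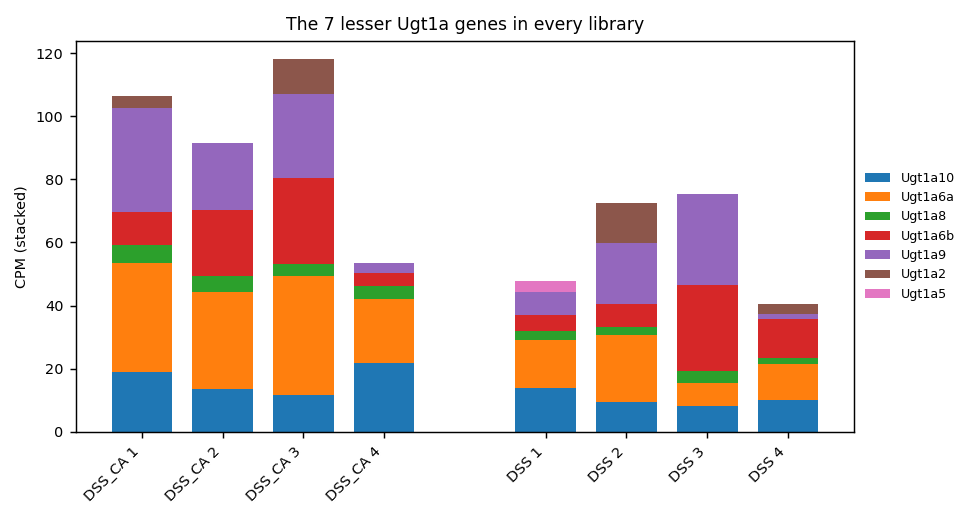
Stacked CPM of the 7 Ugt1a genes other than Ugt1a1 and Ugt1a7c, with DSS_CA 1 to 4 on the left and DSS 1 to 4 on the right and 1 colour for each gene. Totals run from 53.5 to 118 CPM in DSS_CA and from 40.6 to 75.3 CPM in DSS, and the mixture of Ugt1a6b, Ugt1a9 and Ugt1a2 differs between libraries of 1 group.

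Each Ugt1a first exon has its own promoter, and 3 are shown because their genes lead the locus or have its smallest p-values. The windows run from 250 bases before to 50 after the RefSeq start on GRCm38.p6, plus strand, at chr1:88211709-88212008, chr1:88134559-88134858 and chr1:88094751-88095050. Capitals mark the half-site of the transcription factor HNF1, searched as GTTAAT on both strands and seen here as ATTAAC.
Ugt1a1: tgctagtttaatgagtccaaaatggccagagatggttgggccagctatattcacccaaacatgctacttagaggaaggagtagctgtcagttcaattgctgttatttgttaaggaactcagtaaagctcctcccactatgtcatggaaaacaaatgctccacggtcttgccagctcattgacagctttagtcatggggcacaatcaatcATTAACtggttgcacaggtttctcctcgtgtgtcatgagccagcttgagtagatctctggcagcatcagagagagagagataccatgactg
Ugt1a6a: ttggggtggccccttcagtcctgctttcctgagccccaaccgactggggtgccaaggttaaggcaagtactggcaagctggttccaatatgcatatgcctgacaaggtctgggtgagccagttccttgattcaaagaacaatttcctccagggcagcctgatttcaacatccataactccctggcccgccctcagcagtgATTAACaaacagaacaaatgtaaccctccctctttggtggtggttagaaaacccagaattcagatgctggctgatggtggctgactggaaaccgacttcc
Ugt1a7c: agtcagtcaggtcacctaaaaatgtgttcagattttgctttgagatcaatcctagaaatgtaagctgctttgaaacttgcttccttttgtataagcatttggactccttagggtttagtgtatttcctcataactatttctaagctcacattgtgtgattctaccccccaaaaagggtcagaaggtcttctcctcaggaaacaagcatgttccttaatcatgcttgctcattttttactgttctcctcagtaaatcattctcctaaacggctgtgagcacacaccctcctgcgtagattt
The match began 41 bases before the start in Ugt1a1 and 50 bases before it in Ugt1a6a, and Ugt1a7c held none. Of the 8 UGT1 genes with a window 4 held a match, among them Ugt1a9 and Ugt1a10. Of all 32851 promoter windows 7.10% did. Of the 27 tested members 23 had a window, and 6 of them held the half-site, with Sult1d1 and Ugt2a3 outside the locus. The core of the xenobiotic response element, GCGTG on both strands, was in 4 tested members (Ugt1a8, Sult1b1, Sult1d1 and Sult2b1) and 32.4% of all windows. The antioxidant response element core TGACNNNGC was in 0 tested members and 12.4% of all windows. These are letter matches only.

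The UGT2 family conjugates steroids and bile acids among others, and its 10 genes lie on chromosome 5 between 86889767 and 87490871. Of the 6 tested, 3 had positive and 3 negative log2 fold changes, with a median of -0.15. In all 6, DSS 2 was the highest DSS library, and in 5 DSS_CA 3 was the highest of its group. The family summed to 1024 ± 493 CPM in DSS_CA and 1320 ± 858 CPM in DSS, a ratio of 0.776.

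Ugt2b34 led the family with 53.6% of its summed FPKM. It was at 541, 603.5, 1350 and 590 CPM in DSS_CA 1 to 4, against 582, 2003, 530 and 893 CPM in DSS 1 to 4. DSS_CA 3 stood 2.34 times above the mean of the other DSS_CA libraries, and DSS 2 stood 2.996 times above the mean of the other DSS libraries. Its log2 fold change was -0.38 (SE 0.492, edgeR adjusted p = 0.976), and it was 0.21 without DSS 2.

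Ugt2a3, whose human counterpart conjugates bile acids, was at 89.5, 128, 226 and 116 CPM in DSS_CA 1 to 4, against 86.9, 395, 209 and 172 CPM in DSS 1 to 4. The groups overlapped, with DSS_CA 3 and DSS 2 at the top of theirs. Its log2 fold change of -0.63 did not pass (SE 0.456, edgeR adjusted p = 0.893). Ugt2b35 was at 47.1, 58.5, 136 and 56.2 CPM in DSS_CA 1 to 4, against 39.9, 109, 51.1 and 53.1 CPM in DSS 1 to 4. Apart from DSS_CA 3 and DSS 2 its libraries lay close together (log2 fold change 0.23, SE 0.426). Ugt2b5 was at 22.4, 22.5, 28.1 and 22.9 CPM in DSS_CA 1 to 4, against 7.56, 41.95, 24.5 and 17.4 CPM in DSS 1 to 4. Its DSS libraries spread on both sides of the DSS_CA ones (log2 fold change 0.07, SE 0.433), and 58.3% of its 50-base stretches were unique to it. Ugt2b36 had a log2 fold change of 0.08 (SE 0.483).

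Ugt2b38 was the UGT2 gene with the smallest p (0.0277, edgeR), at low counts. It was at 1.90, 2.59, 1.64 and 1.15 CPM in DSS_CA 1 to 4, against 1.52, 6.48, 4.18 and 4.45 CPM in DSS 1 to 4. DSS 1 lay inside the DSS_CA range and the other DSS libraries above it. This gave a log2 fold change of -1.19 (SE 0.470, edgeR adjusted p = 0.504), and 62.6% of its stretches were unique.

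The sulfotransferases of the gut are led by SULT1 enzymes, which take phenols, thyroid hormones and catecholamines. Sult1b1 and Sult1d1 are at chr5:87513339-87538195 and chr5:87554645-87569027, with the first 22.5 kb beyond the UGT2 cluster. All of their 50-base stretches were unique. Both varied more between libraries of 1 group than between groups.

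Sult1d1, which in mice sulfates catecholamines, was at 253, 526, 2879 and 562 CPM in DSS_CA 1 to 4, against 271, 1627, 793 and 709 CPM in DSS 1 to 4. DSS_CA 3 stood 6.44 times above the mean of the other DSS_CA libraries, and library 1 was the lowest in both groups. The log2 fold change was 0.31 (SE 0.731, edgeR adjusted p = 0.998), and it was -0.93 without DSS_CA 3. Its promoter window on GRCm38.p6, minus strand, at chr5:87568957-87569256, is shown because it holds both the HNF1 half-site (GTTAAT) and the xenobiotic response core (here CACGC), in capitals.
Sult1d1: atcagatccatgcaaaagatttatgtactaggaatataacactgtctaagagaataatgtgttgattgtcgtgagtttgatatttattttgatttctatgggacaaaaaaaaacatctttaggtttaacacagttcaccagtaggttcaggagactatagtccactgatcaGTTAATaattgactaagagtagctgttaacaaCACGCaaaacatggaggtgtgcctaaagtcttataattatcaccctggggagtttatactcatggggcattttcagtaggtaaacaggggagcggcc

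Sult1b1, which takes thyroid hormones and phenols, was at 245, 575, 2843 and 542 CPM in DSS_CA 1 to 4, against 311, 1899, 1896 and 895 CPM in DSS 1 to 4. The 3 libraries of short counted genes were the 3 highest of all 8. Between the groups the log2 fold change was -0.25 (SE 0.748, edgeR adjusted p = 0.9995), and it was -1.46 without DSS_CA 3. Sult1c2, another phenol sulfotransferase, was at 4.07, 2.78, 2.15 and 2.07 CPM in DSS_CA 1 to 4, against 1.71, 3.97, 3.35 and 4.002 CPM in DSS 1 to 4. Its groups overlapped (log2 fold change -0.23, SE 0.400).

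Sult2b1, which sulfates cholesterol and related sterols, was the only SULT2 to SULT6 gene tested and held 99.9% of that group's summed FPKM. It was at 138, 167, 118 and 152 CPM in DSS_CA 1 to 4, against 98.0, 76.5, 175 and 110 CPM in DSS 1 to 4. DSS 3 was the highest of all 8 libraries and the groups overlapped. This gave a log2 fold change of 0.33 (SE 0.311, edgeR adjusted p = 0.942). The 8 Sult2a genes, which sulfate bile acids and steroids in the liver, had 0 counts in every library, as had the estrogen sulfotransferase gene Sult1e1. A count of 0 leaves room for up to 3 per library, which is at most 0.307 CPM.

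Of the CES1 genes on chromosome 8 (93020214 to 93535707 with Ces5a), 4 of 8 were tested, 2 with positive and 2 with negative log2 fold changes. Ces1f, a carboxylesterase known from liver and fat cells where it hydrolyses triacylglycerol, held 78.1% of the family's summed FPKM. It was at 277, 319, 381 and 276 CPM in DSS_CA 1 to 4, against 90.4, 271, 260 and 163 CPM in DSS 1 to 4. Every DSS_CA library stood above every DSS library, by a narrow margin over DSS 2 and DSS 3. Between the groups the log2 fold change was 0.68 (SE 0.367, edgeR adjusted p = 0.746).

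Ces1d, the triacylglycerol hydrolase of liver and fat tissue, had the most negative log2 fold change of the 27 members. It was at 4.12, 8.29, 3.17 and 5.89 CPM in DSS_CA 1 to 4, against 6.59, 23.2, 16.8 and 12.1 CPM in DSS 1 to 4. The groups overlapped through DSS 1, and the 2 highest DSS libraries were DSS 2 and DSS 3. Its log2 fold change was -1.44 (SE 0.438, unadjusted p = 0.00694, edgeR adjusted p = 0.282). Without DSS_CA 3, DSS 2 and DSS 3 it was -0.64 (SE 0.362).

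Ces1g, a liver carboxylesterase involved in lipid handling, was at 9.51, 5.44, 2.05 and 5.40 CPM in DSS_CA 1 to 4, against 5.37, 7.40, 8.90 and 5.98 CPM in DSS 1 to 4. DSS_CA 1 was the highest and DSS_CA 3 the lowest of all 8 (log2 fold change -0.29, SE 0.426, and 0.0556 with library totals as the only scaling). Ces1e was at 28.05, 38.5, 30.1 and 31.9 CPM in DSS_CA 1 to 4, against 16.3, 44.3, 38.6 and 26.5 CPM in DSS 1 to 4. The DSS libraries spread on both sides of the DSS_CA ones, and the sign turned with scaling (log2 fold change 0.03, SE 0.333, and -0.0126 with RLE scaling).

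The CES2 genes lie on chromosome 8, between 104734003 and 105150109 together with Ces3a, Ces3b and Ces4a. CES2 enzymes prefer esters with a large alcohol group, and the human enzyme activates the prodrug irinotecan. All 5 tested genes had positive log2 fold changes, with a median of 0.52, and the family summed to 1789 ± 75.8 CPM in DSS_CA and 1459 ± 346 CPM in DSS. The sums overlapped, since DSS 3, at 1914 CPM, lay above every DSS_CA library. Ces2e, which held 71.3% of the family's summed FPKM, was at 1120, 1207, 1666 and 1211 CPM in DSS_CA 1 to 4, against 816, 1324, 1542 and 1036 CPM in DSS 1 to 4. The groups overlapped (0.14, SE 0.329), and without DSS_CA 3 the log2 fold change was -0.000458.

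Ces2c, an acylglycerol hydrolase of gut and liver, was at 350.4, 272, 112 and 332 CPM in DSS_CA 1 to 4, against 158, 87.1, 181 and 146 CPM in DSS 1 to 4. DSS_CA 3 lay inside the DSS range, and the other DSS_CA libraries stood above all DSS libraries. The log2 fold change was 0.90 (SE 0.392, edgeR adjusted p = 0.604). Only 63.9% of its 50-base stretches were unique to it.

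Ces2g had the same order of libraries within each group and the smallest p among the members with a positive log2 fold change. It was at 104, 76.5, 36.4 and 87.8 CPM in DSS_CA 1 to 4, against 34.8, 25.02, 45.03 and 31.8 CPM in DSS 1 to 4. Only DSS 3 reached above the lowest DSS_CA library. On the log2 scale the fold change was 1.16 (SE 0.354, unadjusted p = 0.00718, edgeR adjusted p = 0.287). Ces2a, which hydrolyses acylglycerols, was at 194, 134, 56.9 and 182 CPM in DSS_CA 1 to 4, against 90.97, 71.4, 140.4 and 91.5 CPM in DSS 1 to 4. DSS_CA 3 was the lowest of all 8 and DSS 3 stood among the DSS_CA libraries (log2 fold change 0.52, SE 0.392).

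The promoters of Ces2c and Ces2g are shown because these genes had the smallest p-values of their family and shared their order of libraries within each group. Their windows on GRCm38.p6, plus strand, lie at chr8:104846818-104847117 and chr8:104961468-104961767. Capitals mark the 4 stretches of at least 12 bases that both windows hold.
Ces2c: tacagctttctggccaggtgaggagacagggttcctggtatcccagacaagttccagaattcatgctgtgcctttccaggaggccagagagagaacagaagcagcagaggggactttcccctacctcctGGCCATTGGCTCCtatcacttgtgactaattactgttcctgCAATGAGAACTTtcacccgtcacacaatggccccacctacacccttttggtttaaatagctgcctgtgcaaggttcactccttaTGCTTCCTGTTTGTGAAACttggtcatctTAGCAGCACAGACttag
Ces2g: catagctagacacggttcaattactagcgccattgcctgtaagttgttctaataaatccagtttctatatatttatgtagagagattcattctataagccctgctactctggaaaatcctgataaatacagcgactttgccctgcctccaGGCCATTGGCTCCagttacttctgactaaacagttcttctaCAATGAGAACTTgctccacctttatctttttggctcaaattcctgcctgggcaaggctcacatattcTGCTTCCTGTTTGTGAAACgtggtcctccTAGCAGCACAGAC
The stretches were 13, 12, 19 and 13 bases long and stood in the same order in both windows. Neither window held the HNF1 half-site, the xenobiotic response core or the antioxidant core.

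Over the libraries, the members showed opposite orders. In 10 of the 27, DSS_CA 3 was the highest DSS_CA library and DSS 2 the highest DSS library. They were Sult1b1, Sult1d1, Ugt1a2, Ugt1a6a, Ugt2a3, Ugt2b34, Ugt2b35, Ugt2b36, Ugt2b5 and Ces1f. In 6, Ces2a, Ces2c, Ces2g, Sult2b1, Ugt1a1 and Ugt1a7c, these libraries were the lowest of their groups. Over all 9913 genes the corresponding shares were 25.4% and 31.2%, so both orders were common. Mitochondrial transcripts took 20.5% of counts in DSS_CA 3 and 27.7% in DSS 2, each the highest share of its group. The part of this share, of enterocyte content and of counted gene length was not tested.

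**Figure D3:**
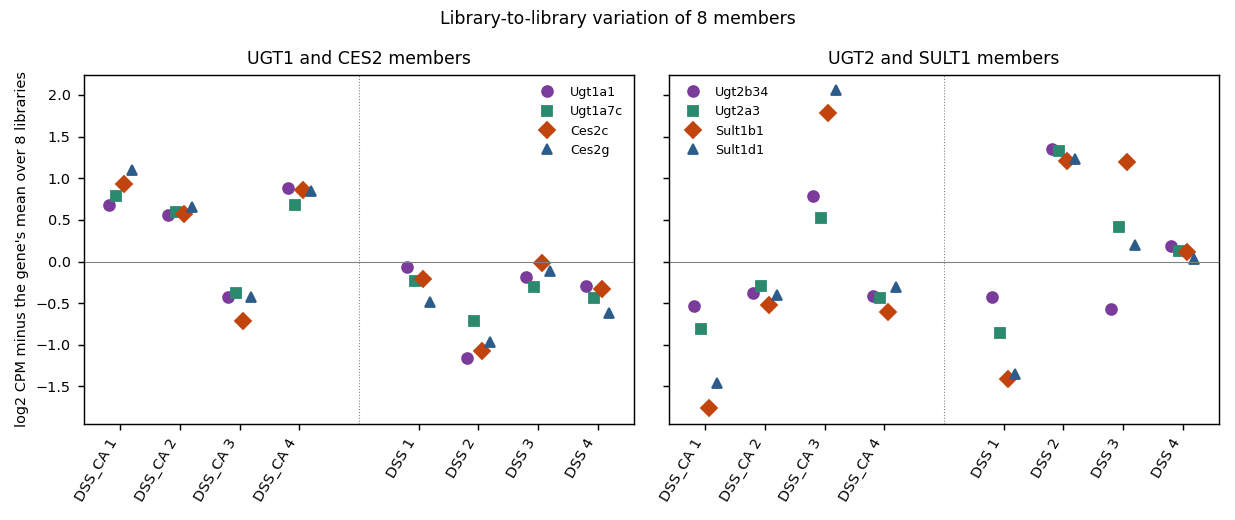
Log2 CPM of 8 members minus each gene's mean over the 8 libraries, with DSS_CA 1 to 4 left and DSS 1 to 4 right in each panel. Ugt1a1, Ugt1a7c, Ces2c and Ces2g (left panel) are lowest of their group in DSS_CA 3 and DSS 2, where Ugt2b34, Ugt2a3, Sult1b1 and Sult1d1 (right panel) are highest.

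Without DSS_CA 3, DSS 2 and DSS 3, the comparison set DSS_CA 1, 2 and 4 against DSS 1 and 4, and 5 members were higher at an adjusted p below 0.05 (18.5% of 27, against 2.36% of all genes). They were Ces2g (1.40, edgeR adjusted p = 0.0174), Ugt1a7c (0.99, 0.0304), Ces2c (1.04, 0.0327), Ces1f (1.18, 0.0447) and Ugt1a1 (0.86, 0.0488), with log2 fold changes given first. Ugt1a7c and Ugt1a1 share exons, so their calls are not separate observations. No member was lower in edgeR at an adjusted p below 0.05, against 4.25% of all genes. At an unadjusted p below 0.05, 12 members were higher and 0 lower. Over all genes, 2728 of 9913 had such a p in this fit, both directions together. The libraries kept also entered the comparison of all 8, so the calls are no independent support. For Ces2g, Ugt1a7c, Ces2c and Ugt1a1 the groups overlapped only through DSS_CA 3, so leaving it out removed the overlap by itself. DSS 2, the lowest DSS library for these genes, was left out too. For Ces1f, DSS 2 and DSS 3, the highest DSS libraries, were left out. Of the 5 members called, all but Ces1f had an unadjusted p below 0.05 with all 8 libraries.

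**Figure D4:**
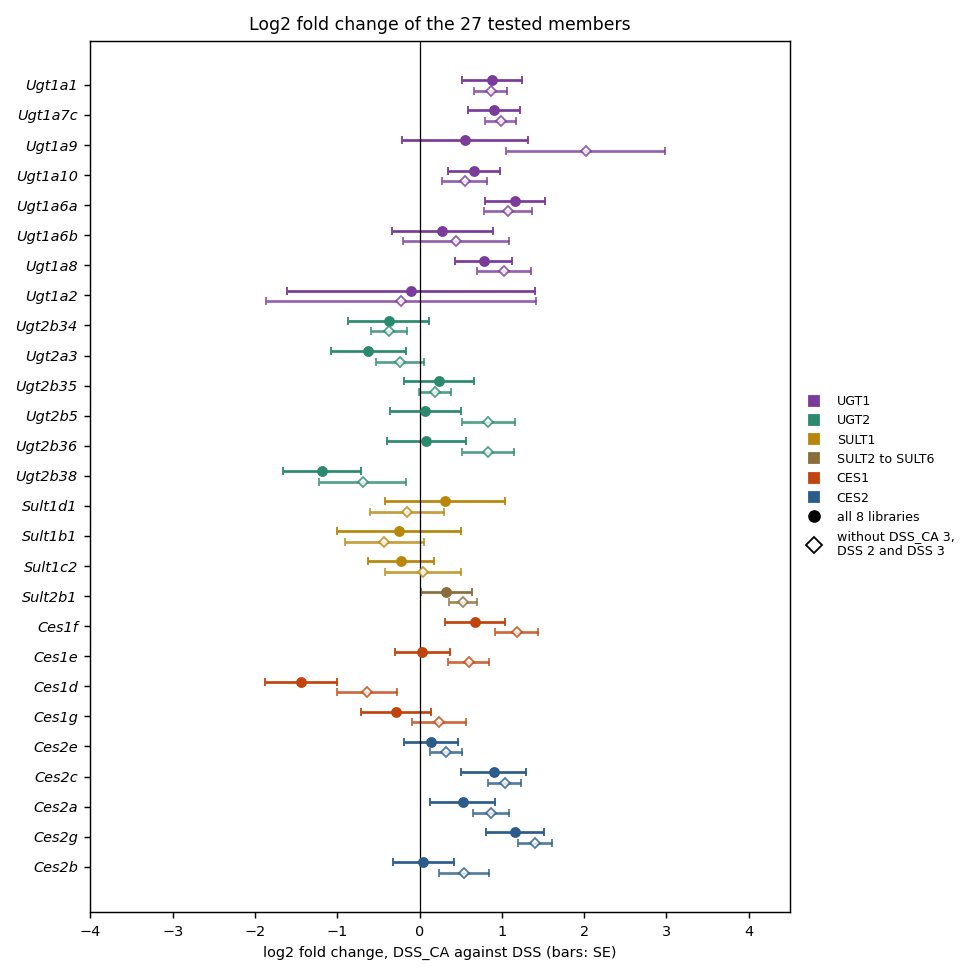
Log2 fold change of DSS_CA against DSS for the 27 tested members by family, with SE as bars, over all 8 libraries (filled circles) and without DSS_CA 3, DSS 2 and DSS 3 (open diamonds). Ces2g, Ugt1a7c, Ces2c and Ugt1a1 lie between 0.86 and 1.40 in both, and Ces1d at -1.44 and -0.64.

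Of the 13 members with few counts, Ces1c had 107 in DSS_CA and 116 in DSS, and Sult1a1, a phenol sulfotransferase, had 116 and 117. Ces1b had 39 and 20, Ces3a 33 and 24, Ces2h 24 and 17 and Ces3b 20 and 29. The remaining ones, Ces1h, Ces2f, Sult1c1, Sult4a1, Ugt2a1, Ugt2b1 and Ugt1a5 of the UGT1 locus, had at most 11 counts in a group apart from the 56 of Ugt1a5 in DSS. None of the 13 reached the level needed for testing, so no difference was tested.

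Genes that supply or undo conjugation, export conjugates or regulate the enzymes were compared in the same fit, and in these 6 lists neither edgeR nor DESeq2 called a gene. At an unadjusted edgeR p below 0.05 there were 2, Gusb and Papss2, both higher, which is 4.17% of the 48 list genes tested, against 7.82% of all genes. Without DSS_CA 3, DSS 2 and DSS 3, Gusb (edgeR adjusted p = 0.0244) and Pgm2 (0.0490) were called higher. All 6 genes of UDP-glucuronic acid supply and deconjugation had positive log2 fold changes, with a median of 0.54. Of these, Ugp2 was at 0.07 (SE 0.386) and turned to -0.34 without DSS_CA 3. Without DSS_CA 3, DSS 2 and DSS 3, 5 of the 6 were positive, with a median of 0.45. Gusb, the lysosomal beta-glucuronidase that removes glucuronic acid, was at 45.5, 35.4, 25.6 and 42.4 CPM in DSS_CA 1 to 4, against 17.3, 13.6, 24.7 and 19.9 CPM in DSS 1 to 4. The groups did not overlap in TMM-scaled CPM, with DSS_CA 3 closest to DSS 3. They overlapped with library totals as the only scaling. Between the groups the log2 fold change was 0.98 (SE 0.301, edgeR adjusted p = 0.289). Pgm2, a phosphoglucomutase, was at 0.53 (SE 0.274).

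Of 10 tested genes of sulfate donor supply and deconjugation (11 listed), 4 were positive and the median was -0.06. Papss2, which makes PAPS, was at 916, 792, 788 and 725 CPM in DSS_CA 1 to 4, against 585, 367, 464 and 482 CPM in DSS 1 to 4. The groups did not overlap (0.76, SE 0.290, edgeR adjusted p = 0.476). Bpnt1, which clears the PAP left after sulfation, averaged 444 ± 67.4 CPM in DSS_CA and 301 ± 32.2 CPM in DSS, also without overlap (0.56, SE 0.276, edgeR adjusted p = 0.692). Papss1, the other PAPS synthase, lay the other way without overlap (-0.53, SE 0.278, edgeR adjusted p = 0.732). It was at 36.2 to 65.4 CPM in DSS_CA and 73.6 to 91.9 CPM in DSS, and is named after its values were seen. For Papss2, Bpnt1 and Papss1 the groups overlapped with library totals as the only scaling.

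Among 14 transcription factors known to drive these enzymes 7 were positive, with a median of 0.05, and the bile acid receptor gene Nr1h4 (0.73, SE 0.488) and Ppara (0.72, SE 0.354) had the smallest p-values. Nr1h4 was at -0.00735 without DSS_CA 3, which held 269 CPM against 50.5 to 93.8 CPM in the other DSS_CA libraries. Among 6 tested conjugate exporters 5 were positive, with a median of 0.39, and the efflux pump gene Abcb1a (0.54, SE 0.322) and the bile acid exporter subunit Slc51a (0.50, SE 0.316) had the smallest. Without DSS_CA 3, DSS 2 and DSS 3, 3 of the 6 were positive and the median was 0.02. Slc51b, the partner subunit of Slc51a, was at 0.62 (SE 0.802), and at -1.04 without DSS_CA 3. Among 8 tested other esterases and epoxide hydrolases 3 were positive, with a median of -0.11, and the smallest p-values were those of the epoxide hydrolase Ephx1 (-0.36, SE 0.360) and the hormone-sensitive lipase Lipe (-0.35, SE 0.345). Among 4 tested other conjugating enzymes 3 were positive, with a median of 0.00, led by the methyltransferases As3mt (0.19, SE 0.283) and Tpmt (-0.17, SE 0.402).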

How the data were processed

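Each of the 8 libraries came as a table of 34745 genes, in which the authors deposited counts and FPKM for every gene, per the file headers. The deposited FPKM values equalled count over gene length and total count within 1%. Per the labels' protocols, 200 ng of RNA (RNeasy Micro) entered TruSeq Stranded Total RNA libraries. HISAT2, StringTie, GRCm38 and mm10 are named per the submitters' processing notes. Neither the counting tool nor a strand setting is given in the sources used here, so overlapping and antisense genes may share counts.

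Genes with at least 1 FPKM in at least 4 of 8 libraries were tested on the deposited counts with edgeR 4.0.16 (limma 3.58.1, R 4.3.3; TMM, quasi-likelihood, two-sided), Benjamini-Hochberg adjusted over 9913 genes at 0.05. Log2 fold changes are DSS_CA over DSS. The SE is the absolute log2 fold change over the square root of F. CPM are TMM scaled. Alternatives were DESeq2 1.42.0, other scalings and filters, a replicate block and left-out libraries. The procedure was tested on simulated data.

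Members and lists were chosen with earlier results of these data known. Values in every library were given for the up to 4 members of highest mean FPKM and up to 2 of smallest p in each family, and for lists the 2 of smallest p (shorter for lists). Ugt1a2, Ugt1a8 and Ugt2b36, and from the lists Papss1, Slc51b and Ugp2, were added after their values were seen. Transcript stretches came from GENCODE M21 and promoters from RefSeq on GRCm38.p6, where 48 of 57 members matched by symbol. Figures used matplotlib 3.10.9 (Python 3.11.15, pandas 2.3.3). Intervals and floors cover counting error only.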

Additional observations from a re-analysis of the deposited data

Results flagged for a closer look

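In 6 of 54 groups checked (27 members in 2 groups of 4), 1 library stood far from the others, by a gap to its neighbour above Dixon's critical share of the group's range. For independent groups of normally distributed values, chance gives about 1 group in 20. The 54 groups came from the same libraries and were not independent. The share over all genes tested was not determined, so no excess is read from the 6. In all 6 the library was DSS_CA 3, and it was high. Its levels were 1666 CPM for Ces2e, 2843 CPM for Sult1b1, 2879 CPM for Sult1d1, 1350 CPM for Ugt2b34, 136 CPM for Ugt2b35 and 28.1 CPM for Ugt2b5. DSS_CA 3 also had the highest summed absorptive enterocyte markers of all 8 libraries, at 128152 CPM, and short counted genes; their part was not tested.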

How the results depend on the processing

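No member was called higher or lower in any alternative except without DSS 2, DSS 3 and DSS_CA 3, where 5 were higher. At an unadjusted p below 0.05, the other alternatives gave 2 to 8 members higher and 1 to 3 lower. The count over all 9913 genes moved too, both directions together. It was 504 without DSS_CA 4 and 1371 without DSS_CA 3, the fit with 8 members higher and 3 lower. At an adjusted p below 0.05, the main fit called 4 of all genes higher and 9 lower. The counts were 51 and 169 with DESeq2, 7 and 20 with RLE scaling, 18 and 61 with no filter, and 234 and 421 without those 3 libraries. With library totals only, 2 were higher. Leaving out 1 library gave 0 to 19 higher and 4 to 65 lower, with 11 and 25 without DSS 3, 19 and 65 without DSS_CA 3, 0 higher without DSS 1, DSS 2, DSS 4, DSS_CA 2 or DSS_CA 4, and 4 lower without DSS_CA 2 or DSS_CA 4. The 5 fits without a higher gene had 504 to 845 genes with an unadjusted edgeR p under 0.05. The cause was not tested.

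With the replicate number as a block, 14 genes were higher and 51 lower, and 0 members. The sample titles do not say whether the numbers mark pairs. Same-numbered libraries had correlations of deviations of 0.752, -0.344, 0.105 and 0.197. These cannot settle it, since the first principal component, which did not follow treatment, held 50.9% of the variance.

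Of the 22 members the naming rule gave, 13 had the same sign in all 16 alternatives and 9 did not. Ces1e turned to -0.0124 with DESeq2 and -0.0126 with RLE scaling, Ces1g to 0.0556 with library totals and 0.235 without the 3 libraries, and Sult1c2 to 0.0766 and 0.0408. Sult1d1 turned to -0.0787 with the block and -0.151 without the 3 libraries. With 1 library left out, log2 fold changes ranged from -0.18 to 0.25 for Ces1e, -0.000458 to 0.30 for Ces2e, -1.46 to 0.0781 for Sult1b1, -0.93 to 0.84 for Sult1d1, -0.79 to 0.21 for Ugt2b34, -0.23 to 0.63 for Ugt2b35 and -0.22 to 0.54 for Ugt2b5. Library totals moved the median of all genes by 0.19. Low counts limit the genes that were not tested, and shared exons the single Ugt1a genes.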
